A study of Mus musculus with 4 samples.

Results

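The genes described here encode the enzymes that build glycerophospholipids and exchange their fatty acyl chains, among them the lysophospholipid acyltransferase Lpcat4. They were taken from the deposited expression table by gene symbol, with no measured value used: all symbols starting with Lpcat, Agpat, Mboat, Lpgat, Gpat, Pla2g, Lypla, Pcyt or Etnk, together with the lipins, Chka, Chkb, Chpt1, Cept1, Pemt and Gpcpd1, and without names marked as pseudogenes. The symbols themselves were chosen with earlier results of these data known. Of 34745 genes in the table, 64 matched. Of these, 7 have symbols starting with Gpatch and encode G-patch domain proteins, which are not phospholipid enzymes, so 57 genes are described as phospholipid members and the 7 are given apart.

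The series holds RNA sequencing of CD4+ T cells from the spleen of wild-type C57BL/6 mice, with 4 libraries and 1 for each group. Cells of the naive group were taken straight from the spleen and not cultured. Th0 cells received antibodies against CD3 and CD28 for 3 days. The Th17 and Treg groups were held for 3 days in conditions that drive either fate, with cytokines not given in the sources used here. The series title links the histone methyltransferase Setd2 to phospholipid remodelling by Lpcat4 in T cell autoimmunity, and all 4 libraries are of wild-type cells. With 1 library per group, no spread between replicates could be measured and no difference has a replicate check. Intervals below cover counting error of the 2 libraries compared and nothing else.

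Glycerophospholipids are made by stepwise acylation of glycerol 3-phosphate to lysophosphatidic acid and phosphatidic acid. Lipins remove the phosphate to give diacylglycerol, and phosphatidylcholine and phosphatidylethanolamine are then completed in the Kennedy pathway by kinases, cytidylyl-transferases and a final transferase. In the Lands cycle, phospholipases A2 remove an acyl chain from a finished phospholipid and lysophospholipid acyltransferases put another in its place, which sets the acyl composition of membranes. T cells enlarge their membranes when antigen receptor stimulation drives them to grow and divide.

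Library totals were 11901949 counts (naive), 10272122 (Th0), 12414372 (Th17) and 10256627 (Treg). Levels are given as CPM, read counts expressed per fixed library size, after scaling by TMM, a method that sets a central, trimmed set of genes equal between libraries. Where 4 values follow each other without names, their order is naive, Th0, Th17, Treg. The labelled lineages were visible in part: Il17a had 1186 counts in Th17, 163 in Treg, 3 in naive and 0 in Th0. Foxp3, the regulatory T cell factor, stood at 51.5 CPM in Treg, 11.3 in Th17 and 1.37 in Th0, but at 129 CPM in naive, above the Treg library. Transcripts of other splenic cells were abundant in naive. Summed over 12 macrophage and monocyte markers it had 5000 CPM, against 32.6 in Th0, 38.2 in Th17 and 53.2 in Treg, while 8 T cell markers summed to 3221, 4035, 3342 and 3611 CPM. Summed levels of the 12 B cell markers were 3909, 463, 236 and 108 CPM, those of the 10 neutrophil markers 1691, 1.37, 6.44 and 5.59, and those of the 10 dendritic cell markers 357, 9.02, 17.9 and 28.1. The lists for red cells and platelets (194 CPM in naive, 7.20 to 10.04 in the cultures), CD8 T and NK cells (147, and 58.3 to 85.4) and stroma and endothelium (187, and 46.2 to 61.5) were also highest in naive. In bulk RNA, fewer cells of a type and less RNA per cell cannot be told apart.

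Of the 57 phospholipid members, 8 had 0 counts in all 4 libraries: Lpcat2b, Pla2g10, Pla2g10os, Pla2g12b, Pla2g2a, Pla2g2c, Pla2g2e and Pla2g2f. Another 7 never passed 9 counts in a library (Gpat2, Lpin3, Lyplal1, Pla2g1b, Pla2g4d, Pla2g4e and Pla2g5). The other 42 had at least 10 counts in some library, and 34 of them reached 10 CPM. Pla2g10os is by its name a transcript of the strand opposite Pla2g10 and no enzyme gene, though its symbol places it among the 57. A count of 0 allows up to 3 counts, or 0.244 CPM (naive), 0.343 (Th0), 0.230 (Th17) and 0.271 (Treg).

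RefSeq promoter windows of GRCm38.p6, from 250 bases before to 50 bases after the gene start, were found for 46 of the 57 members. The 26 members with a window and at least 10 counts in all 4 libraries had a median of 23.5 CpG dinucleotides in it, and the 7 silent members with a window had a median of 5. The median over all 27025 RefSeq windows was 7. Other genes with at least 10 counts in all 4 libraries were not counted apart. These medians, and the motif shares that follow, are therefore not shown to be particular to the members. The GC box GGGCGG, searched on both strands like all motifs here, was found in 56.5% of the 46 windows and in 35.9% of all windows, and the TATA box TATAAA in 6.52% and 14.2%. For CCAAT the shares were 45.7% and 38.0%, for the E-box CACGTG 6.52% and 7.24%, and for its overlapping core ACGTG 26.1% and 19.6%. A sterol response element, TCACNCCAC, stood in 2 of the 46 windows, those of Pcyt1a and Pla2g12a, and in 1.22% of all windows. Shown are exon-free stretches before the start of 5 genes on which the comparisons below turn: Pcyt1a and Lpin2, which were below Th0 in both polarized libraries, Agpat1 and Lpcat3, which were above it, and Pla2g12a, the other gene with the sterol element. Capitals mark matches, on either strand, to the sterol element, the E-box, CCAAT or the GC box.
Pcyt1a: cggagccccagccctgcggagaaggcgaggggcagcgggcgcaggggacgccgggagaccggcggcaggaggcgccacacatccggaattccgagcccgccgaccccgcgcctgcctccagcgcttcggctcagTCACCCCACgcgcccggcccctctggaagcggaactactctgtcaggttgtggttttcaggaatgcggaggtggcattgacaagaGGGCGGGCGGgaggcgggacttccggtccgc
Lpin2: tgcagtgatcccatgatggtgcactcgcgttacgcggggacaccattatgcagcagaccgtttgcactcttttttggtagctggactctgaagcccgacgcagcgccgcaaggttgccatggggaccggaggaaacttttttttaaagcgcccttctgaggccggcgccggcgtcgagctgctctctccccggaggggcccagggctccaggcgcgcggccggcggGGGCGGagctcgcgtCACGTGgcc
Agpat1: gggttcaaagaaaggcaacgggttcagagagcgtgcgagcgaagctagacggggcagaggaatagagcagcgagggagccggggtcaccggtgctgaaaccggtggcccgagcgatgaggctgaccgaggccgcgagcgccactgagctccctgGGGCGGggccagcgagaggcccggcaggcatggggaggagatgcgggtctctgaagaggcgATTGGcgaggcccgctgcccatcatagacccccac
Lpcat3: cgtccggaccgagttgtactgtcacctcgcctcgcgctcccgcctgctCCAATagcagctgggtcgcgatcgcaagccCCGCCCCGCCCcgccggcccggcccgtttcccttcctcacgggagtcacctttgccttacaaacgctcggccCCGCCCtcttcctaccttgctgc
Pla2g12a: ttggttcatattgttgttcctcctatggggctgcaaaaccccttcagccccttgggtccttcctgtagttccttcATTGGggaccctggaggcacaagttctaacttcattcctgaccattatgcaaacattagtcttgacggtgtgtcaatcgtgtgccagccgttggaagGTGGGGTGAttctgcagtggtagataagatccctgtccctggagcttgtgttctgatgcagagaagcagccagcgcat
All 5 are on the plus strand, at chr16:32430671-32430920 (Pcyt1a), chr17:71183282-71183531 (Lpin2), chr17:34605611-34605860 (Agpat1), chr6:124662854-124663026 (Lpcat3) and chr3:129880934-129881183 (Pla2g12a). The stretches of Lpin2, Agpat1 and Pla2g12a lie downstream of the first base of the GENCODE gene, so other annotated transcripts start before them. Pcyt1a carries 28 CpG and Pla2g12a 4 in the letters shown. A match is a stretch of letters, and binding was not measured.

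Members were called most often between Th0 and naive and least often between Th17 and Treg, as were all genes. A gene was called when its CPM, with 1 CPM added to each side, differed by at least 2-fold and the 95% exact interval of its count ratio excluded 1. It was compared when it had at least 10 counts in 1 of the 2 libraries. In Th0 over naive, 39 members could be compared, and 10 were called higher (background 18.5% of 13995 genes) and 8 lower (background 27.2%). Their median log2 ratio was -0.19, against -0.13 over all genes compared. Among genes reaching 10 CPM in either polarized library, a restriction chosen after the marker levels were seen, 30 members could be compared and 9 were called higher and 4 lower (background 21.5% and 17.2%).

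In Th17 over Th0, 39 members were compared, with 7 called higher (background 20.4% of 13324 genes) and 5 lower (background 12.2%). The median was 0.31, against 0.10 over all genes, and -0.047 when only members reaching 10 CPM on a side of the ratio were kept. In Treg over Th0, 8 of 39 were called higher (background 20.2% of 13138 genes) and 4 lower (background 11.9%). The median was 0.14, against 0.08 over all genes, and -0.18 with that stricter filter. Both comparisons use the same Th0 library and are not independent of each other. In Th17 over Treg, 2 of 40 members were called higher (background 1.94% of 13346 genes) and 1 lower (background 1.21%), and the other 37 were not called, with a median of 0.02 against 0.01 over all genes. Read against the background, the share of members called in Th17 over Th0 and Treg over Th0 was close to that of all genes compared. In Th0 over naive it was somewhat above the background for higher calls and somewhat below it for lower calls. The calls in Th17 over Treg are too few to be read against their background. With 1.5-fold in place of 2-fold, 11 of 39 were higher and 10 lower in Th0 over naive (background 28.8% and 36.9%). In Th17 over Th0 the counts were 13 and 9 of 39 (32.1% and 24.1%). The same rule gave 18 and 10 of 39 in Treg over Th0 (31.6% and 23.6%), where the higher calls were above the background share. It gave 3 and 2 of 40 in Th17 over Treg (6.3% and 5.29%).

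**Figure D1:**
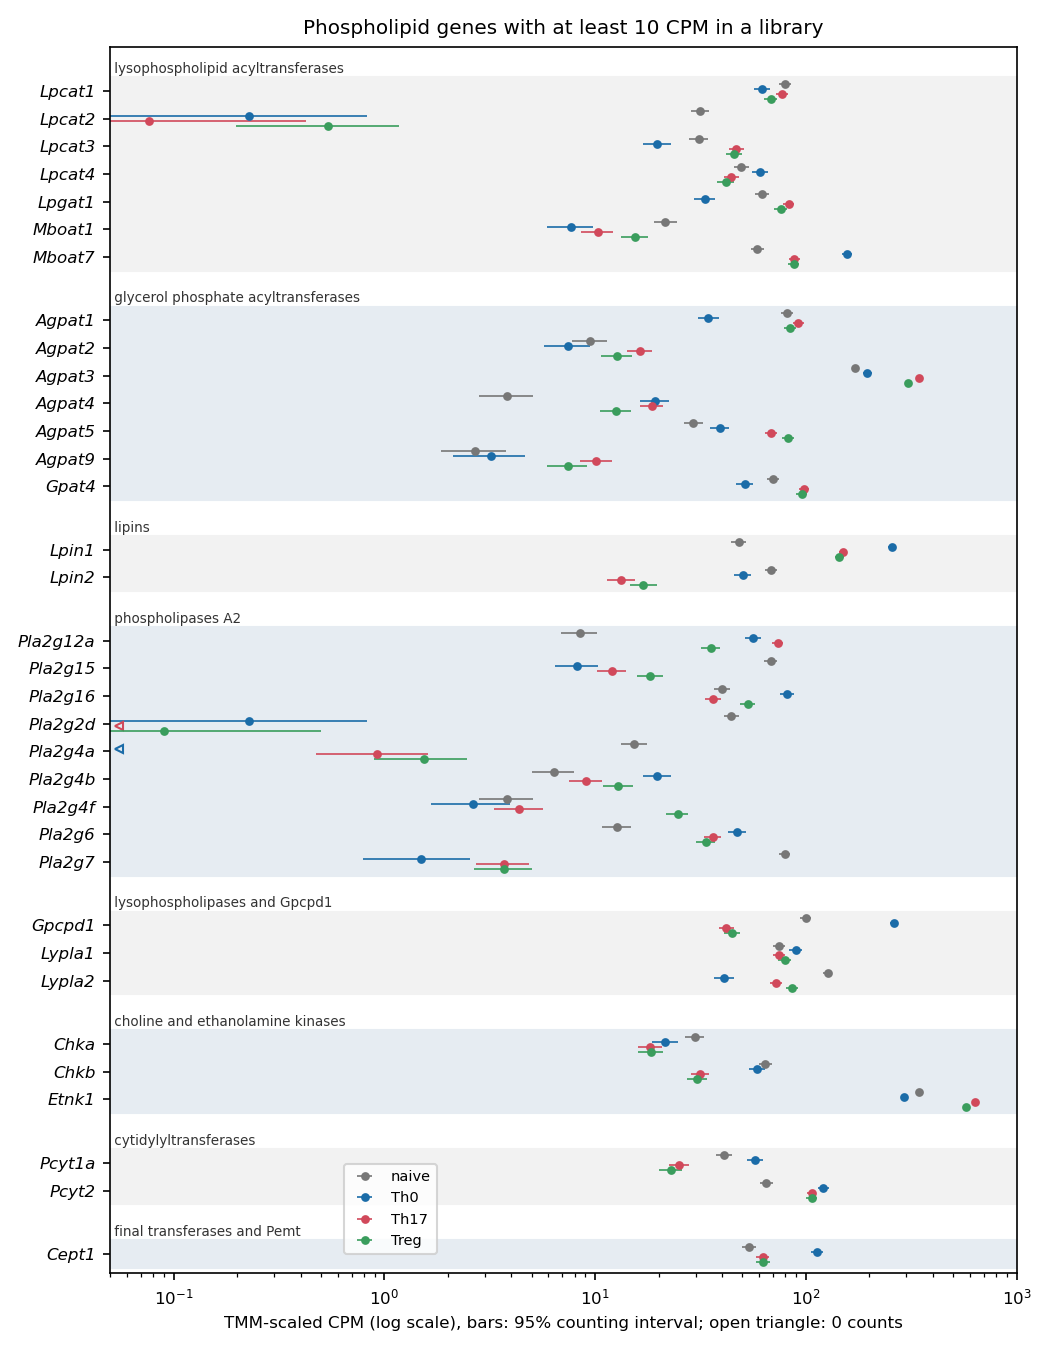
TMM-scaled CPM (log axis) of the 34 phospholipid members with at least 10 CPM in a library, by enzyme class, in the naive, Th0, Th17 and Treg libraries. Points are single libraries, bars the 95% Poisson counting interval, and open triangles 0 counts. Th17 and Treg points lie close together for most genes, and Pla2g2d, Pla2g7, Lpcat2 and Pla2g4a are at 15.3 CPM or more in naive and at 3.70 CPM or less elsewhere.

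Lysophospholipid acyltransferases return an acyl chain to a lysophospholipid. Lpcat4, which acts on lysophosphatidylcholine and lysophosphatidylethanolamine (chromosome 2, 112239468 to 112247111, plus strand, GRCm38), stood at 49.4 CPM (naive), 60.4 (Th0), 44.2 (Th17) and 41.7 (Treg), on 607, 529, 577 and 462 counts. It was highest in Th0 and lowest in Treg, over a narrow range. Its log2 ratio was 0.29 in Th0 over naive (interval 0.12 to 0.46), -0.44 in Th17 over Th0 (-0.62 to -0.28), -0.53 in Treg over Th0 (-0.72 to -0.35) and 0.08 in Th17 over Treg (-0.09 to 0.27). None of the 4 reached 2-fold, and the last interval included no difference. With scaling to library totals the first 3 were 0.014, -0.15 and -0.19, so the height of Lpcat4 in Th0 depends on the scaling. DESeq2 size factors and upper quartile scaling gave 0.30 and 0.25 for the first.

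Lpcat3, which prefers polyunsaturated acyl chains, stood at 31.0 CPM (naive), 19.8 (Th0), 46.8 (Th17) and 45.5 (Treg). Here Th0 was the lowest library, and the levels in Th17 and Treg were 2.37-fold and 2.30-fold above it. Lpgat1, a lysophosphatidylglycerol acyltransferase, had the same order, with 61.9, 33.1, 83.1 and 75.9 CPM. It was 2.51-fold higher in Th17 and 2.29-fold higher in Treg than in Th0. Of the exon bases of Lpcat3, 10.2% overlap Emg1 on the other strand. The ratio of Lpcat3 to Lpcat4 counts, which does not depend on the scaling between libraries, was 3.24 times as high in Th17 as in Th0 (interval 2.62 to 4.003) and 3.33 times as high in Treg (2.68 to 4.15). In Th0 it was 0.521 of the naive ratio (0.418 to 0.649). A rise over Th0 in the ratio to Lpcat4 was not particular to Lpcat3. For Lpgat1, Agpat3 and Lpcat1, the ratio to Lpcat4 was 3.43, 2.40 and 1.70 times as high in Th17 as in Th0. In Treg it was 3.32, 2.26 and 1.60 times as high. All these ratios share Lpcat4, whose own log2 ratio over Th0 was -0.44 in Th17 and -0.53 in Treg. The log2 ratio of Lpcat1 itself over Th0 was 0.31 in Th17 and 0.14 in Treg. The interval of the latter (-0.02 to 0.30) included no difference.

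Lpcat1, which favours saturated acyl chains, varied little, at 79.5, 61.8, 77.1 and 68.1 CPM, and was called in no comparison. Lpcat2, which also makes platelet-activating factor in inflammatory cells, had 387 counts in naive and 2, 1 and 6 in Th0, Th17 and Treg. Per kilobase of exon, Lpcat4 made up 32.7% of the summed level of Lpcat1 to Lpcat4 in naive and 52.4% in Th0, with 33.6% (Th17) and 33.9% (Treg) in the polarized libraries. Lpcat3 made up 17.8%, 14.8%, 30.7% and 32.0%, and Lpcat1 between 32.1% and 35.7%. Lpcat2 made up 17.4% in naive and 0.165%, 0.0485% and 0.367% in Th0, Th17 and Treg. The naive sum thus holds a gene nearly absent from the cultures, which lowers the other naive shares. By share, Lpcat4 therefore led in Th0, while Lpcat1, Lpcat3 and Lpcat4 were nearly even in Th17 and Treg on this scale. With the authors' FPKM the Lpcat4 share was 31.2%, 51.6%, 34.3% and 34.8%. On that scale Lpcat1 led in Th17 with 42.4% and in Treg with 40.3%, and Lpcat3 had 23.3% and 24.3%, so the even shares in the polarized libraries depend on the length used.

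Mboat7, which puts arachidonate into phosphatidylinositol, had 58.9 CPM in naive and 157 in Th0, 2.67-fold more, and 88.0 in Th17 and 87.6 in Treg. Mboat1, an acyltransferase for lysophosphatidylserine and lysophosphatidylethanolamine, ran the other way between naive (21.6 CPM) and Th0 (7.65), a 2.82-fold lower level, with 10.27 in Th17 and 15.4 in Treg. Mboat2 was low throughout, with 8 counts (naive), 8 (Th0), 57 (Th17) and 25 (Treg), and was called higher in Th17 over Th0 at 4.78-fold. Mboat4, the ghrelin acyltransferase, did not pass 10 counts. Per kilobase, Mboat7 held 54.2% of the sum of Mboat1, Mboat2 and Mboat7 in naive and 89.6% in Th0, 76.4% in Th17 and 70.2% in Treg. By FPKM its naive share was 36.4%, below that of Mboat1, so the order of those genes in naive depends on the length used.

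**Figure D2:**
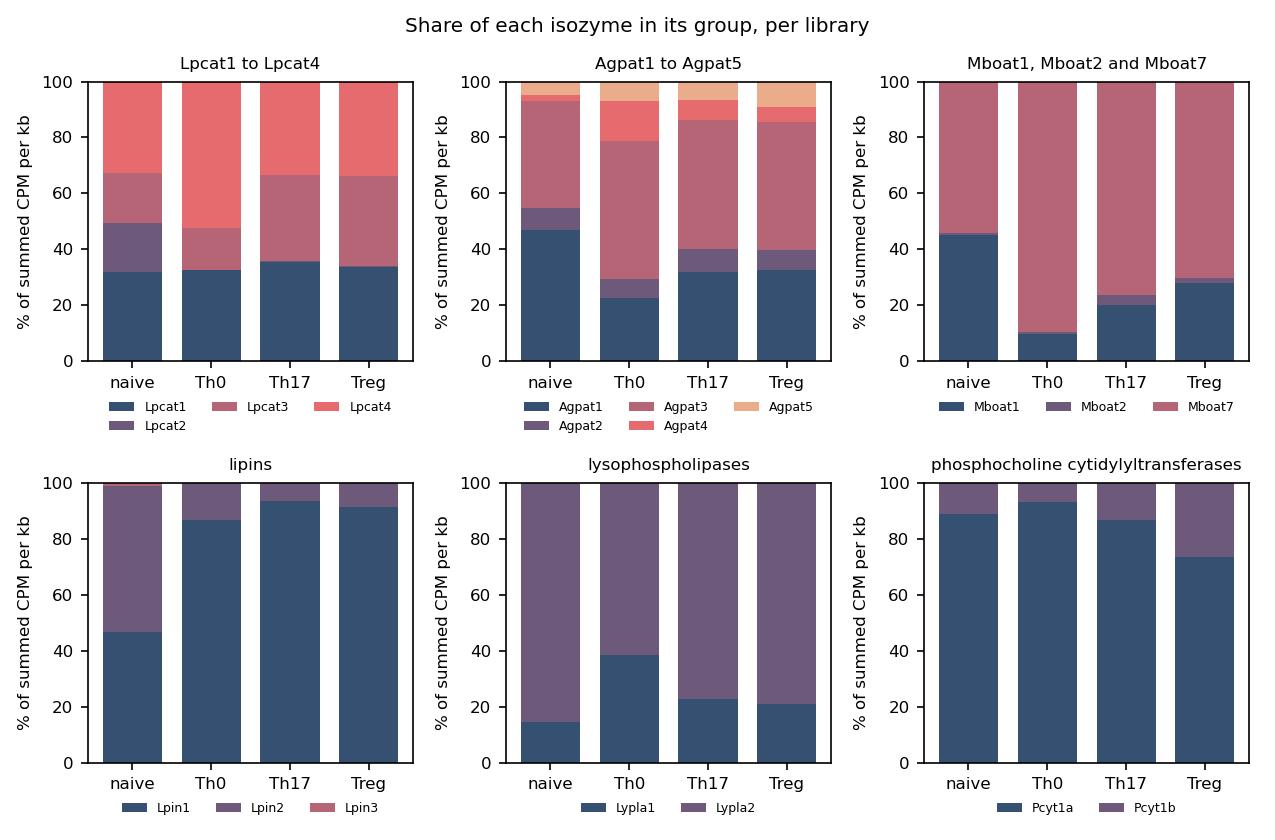
Share of each isozyme (percent of the summed CPM per kilobase of exon) in 6 enzyme groups, for the naive, Th0, Th17 and Treg libraries, 1 library per bar. The Lpcat4 share is 52.4% in Th0 and 32.7% to 33.9% in the other libraries, and the Lpin1 share is 46.6% in naive and 86.6% to 93.4% in the cultures. Lpcat2 makes up 17.4% of the Lpcat sum in naive and at most 0.367% in the cultures.

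Acylation of glycerol 3-phosphate is the first step of synthesis. Gpat4, an enzyme of this step in the endoplasmic reticulum, stood at 70.0, 51.2, 98.4 and 95.5 CPM, and was not called in any comparison. Agpat9, the older symbol of the related enzyme Gpat3, had 2.69, 3.198, 10.1 and 7.39 CPM. It was called higher in Th17 over Th0, at 3.16-fold, and its Treg value lay at the threshold, with a log2 ratio of 0.9997 that was not called under TMM and was called under 2 of 4 scalings. Of the exon bases of Agpat9, 37.4% overlap other genes, an antisense gene and a gene on the same strand, so its counts are uncertain.

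The Agpat enzymes add the next chain, turning lysophosphatidic acid into phosphatidic acid. Agpat1 (chromosome 17, 34604262 to 34613449) stood at 81.6 CPM (naive), 34.5 (Th0), 92.2 (Th17) and 84.0 (Treg). Th0 was the low library: 2.36-fold below naive, with Th17 2.67-fold and Treg 2.44-fold above it, and these calls held under all 4 scalings. Agpat4 had the reverse relation between the first 2 libraries, with 3.83 CPM in naive and 19.2 in Th0, 5.02-fold more, then 18.5 in Th17 and 12.5 in Treg.

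Agpat3 was among the most abundant members per kilobase in every library, at 172, 196, 344 and 306 CPM, with log2 ratios of 0.81 in Th17 over Th0 and 0.64 in Treg over Th0 that stayed under 2-fold. Agpat5 had 29.2, 39.0, 68.3 and 82.6 CPM and was 1 of only 2 members with at least 10 CPM that were highest in Treg, 2.12-fold over Th0. Of its exon bases, 18.9% overlap an antisense gene. Agpat2 had 9.44, 7.42, 16.2 and 12.7 CPM and was called higher in Th17 over Th0 at 2.19-fold. The Agpat5 call in Treg and the Agpat2 call in Th17 each held under 3 of 4 scalings. Per kilobase, Agpat1 made up 47.0% of the summed Agpat1 to Agpat5 level in naive, 22.6% in Th0, and 32.1% and 32.8% in the polarized libraries, while Agpat4 was 2.45%, 14.0%, 7.18% and 5.43%. By the authors' FPKM the Agpat1 share was 34.3% in naive and 14.6% in Th0, and Agpat3 led in naive with 45.8%, so the leading gene there depends on the length used.

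Lipins convert phosphatidic acid into diacylglycerol. Lpin1 (chromosome 12, 16535669 to 16589770, minus strand) stood at 48.0 CPM (naive), 256 (Th0), 150 (Th17) and 144 (Treg). Th0 was 5.33-fold above naive, with a log2 interval of 2.28 to 2.55, and the polarized libraries lay between them. Lpin2 did not follow it, at 68.2, 50.1, 13.3 and 16.95 CPM, and lay below Th0 by 3.76-fold in Th17 and 2.96-fold in Treg. The ratio of Lpin1 to Lpin2 counts was 7.24 times as high in Th0 as in naive (interval 6.24 to 8.41), and a further 2.20 times (1.82 to 2.66) in Th17 and 1.67 times (1.38 to 2.01) in Treg over Th0. Per kilobase, Lpin1 made up 46.6% of lipin transcripts in naive, 86.6% (Th0), 93.4% (Th17) and 91.5% (Treg), and by FPKM 66.9% in naive, so which lipin led in naive depends on the length used. Lpin3 had 5 counts in naive and 0 elsewhere.

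In the Kennedy pathway, choline and ethanolamine are first phosphorylated. Etnk1, an ethanolamine kinase, had the highest CPM per kilobase of all members in Th17, and stood at 344, 294, 635 and 574 CPM. The level in Th17 was 2.16-fold above Th0 and called, while the Treg level, 1.95-fold above Th0, was not, and Th17 and Treg themselves differed by a log2 ratio of 0.15. Etnk2 had 0 counts (naive), 40 (Th0), 59 (Th17) and 6 (Treg). It was at least 18.7-fold higher in Th0 than in naive, lower in Treg by 8.44-fold against Th0, and 8.35-fold higher in Th17 than in Treg, on few counts. The choline kinases were called in no comparison: Chka had 29.6, 21.5, 18.2 and 18.4 CPM, and Chkb 64.1, 58.5, 31.6 and 30.6 CPM, with 57.6% of Chkb exon bases shared with other genes.

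The cytidylyl-transferases Pcyt1a and Pcyt2 set the pace of the choline and ethanolamine branches. Pcyt1a stood at 40.8 CPM (naive), 57.2 (Th0), 24.98 (Th17) and 22.9 (Treg). Th0 was the highest library, and Th17 was 2.29-fold and Treg 2.50-fold below it, each call held under 3 of 4 scalings. Pcyt2 had 65.0, 121, 106 and 107 CPM, so that the ratio of Pcyt2 to Pcyt1a counts was 2.02 times as high in Th17 (interval 1.71 to 2.38) and 2.20 times as high in Treg (1.85 to 2.63) as in Th0. Pcyt1b was low, at 3.66, 3.08, 2.76 and 5.95 CPM.

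Cept1, the final transferase for both choline and ethanolamine phospholipids, stood at 53.7 CPM (naive), 113 (Th0), 62.4 (Th17) and 62.6 (Treg). It was called higher in Th0 over naive, at 2.10-fold, under 3 of 4 scalings, and was the member with the highest CPM per kilobase in Th0. Of its exon bases, 24.9% overlap neighbouring genes on the other strand. Chpt1, a transferase for choline phospholipids, had 6.51 to 8.87 CPM, and Pemt, which methylates phosphatidylethanolamine in liver, 1.23 to 1.48 CPM. Neither was called.

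**Figure D3:**
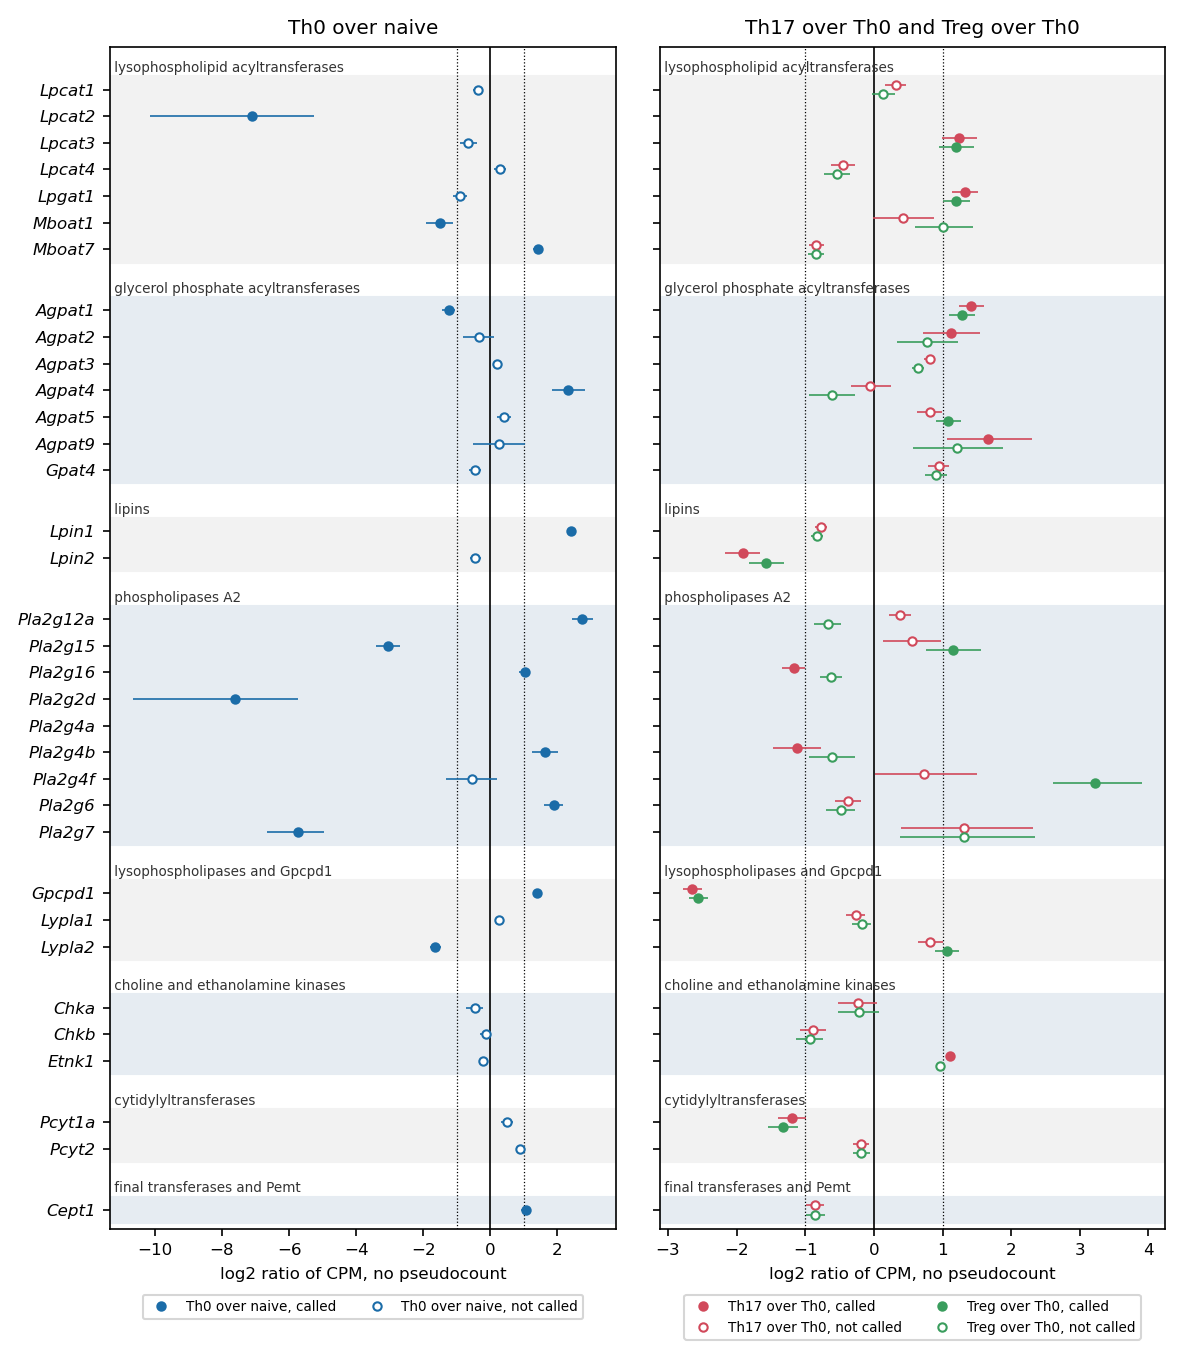
Log2 ratios of TMM-scaled CPM, without a pseudocount, for the 34 members with at least 10 CPM in a library: Th0 over naive on the left, Th17 over Th0 and Treg over Th0, which share the Th0 library, on the right. Bars are 95% exact counting intervals, filled points were called, dotted lines mark 2-fold, and ratios with 0 counts on a side or fewer than 10 counts in both libraries are not drawn. Gpcpd1 and Lpin2 lie to the left and Agpat1, Lpcat3 and Lpgat1 to the right of 0 on the right-hand plot in both comparisons.

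Gpcpd1, which splits glycerophosphocholine, the product left when both acyl chains of phosphatidylcholine have been removed, had a wide range among the cultures. The gene, on chromosome 2 from 132529082 to 132587729 on the minus strand, stood at 99.7 CPM (naive), 262 (Th0), 42.0 (Th17) and 44.6 (Treg). Th0 was 2.63-fold above naive, and the polarized libraries were 6.25-fold (Th17) and 5.88-fold (Treg) below Th0 and also below naive. The ratio of Gpcpd1 to Chka counts was 3.63 times as high in Th0 as in naive (interval 2.99 to 4.41), and in Th17 and Treg it was 0.188 (0.151 to 0.234) and 0.199 (0.158 to 0.249) of the Th0 ratio.

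Lypla1 and Lypla2 are acyl-protein thioesterases that also hydrolyse lysophospholipids. Lypla1 lay within a narrow range, at 74.4, 89.7, 74.8 and 79.2 CPM. Lypla2 stood at 127, 40.9, 72.4 and 85.7 CPM, 3.11-fold lower in Th0 than in naive and 2.10-fold higher in Treg than in Th0, the latter under 3 of 4 scalings. The Lypla2 to Lypla1 count ratio in Th0 was 0.267 of that in naive (interval 0.229 to 0.311).

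Phospholipases A2 cut the middle acyl chain. In this class 4 of 10 genes compared were called higher in Th0 than in naive (background 18.5%) and 4 lower (27.2%). Pla2g12a, a secreted form, stood at 8.47 CPM (naive), 56.3 (Th0), 73.5 (Th17) and 35.4 (Treg). It was 6.65-fold higher in Th0 than in naive, and also 2.08-fold higher in Th17 than in Treg, with a log2 ratio of 1.03 (interval of the ratio without pseudocount 0.88 to 1.23) that was called under 3 of 4 scalings. Pla2g6, the calcium-independent enzyme, had 12.7, 46.9, 36.2 and 33.5 CPM, 3.70-fold more in Th0 than in naive, and kept most of that level in Th17 and Treg. Pla2g16 had 39.97, 81.4, 36.3 and 52.8 CPM. Its 2.04-fold higher level in Th0 was called under 2 of 4 scalings and its 2.24-fold lower level in Th17 over Th0 under 3. Pla2g4b had 6.35, 19.6, 9.04 and 12.9 CPM, but 66.5% of its exon bases are shared with other annotated genes, among them a read-through gene, so its counts are uncertain.

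Pla2g4f, a cytosolic form, stood apart in Treg. It had 47 counts (naive), 23 (Th0), 57 (Th17) and 273 (Treg), or 3.83, 2.63, 4.37 and 24.6 CPM. The Treg level was 9.37-fold above Th0 and 5.64-fold above Th17, and the other 3 libraries lay within a narrow range of each other. The log2 ratio of Pla2g4f in Th17 over Treg was -2.26 with 1 CPM added to each side and -2.50 without. Together with Etnk2 and Pla2g12a it makes up all the members called between Th17 and Treg.

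Another 4 phospholipases A2 and Lpcat2 were at their highest in naive. Pla2g7, the secreted platelet-activating factor acetylhydrolase, stood at 79.2, 1.48, 3.68 and 3.70 CPM, 53.3-fold lower in Th0 than in naive. Pla2g2d, a secreted enzyme of lymphoid tissue dendritic cells and macrophages, had 545, 2, 0 and 1 counts. Its log2 ratio without pseudocount lay between -10.65 and -5.74 in Th0 over naive, and that of Lpcat2 between -10.16 and -5.24. Pla2g4a, the arachidonate-releasing cytosolic enzyme, had 188, 0, 12 and 17 counts, at least 44.7-fold lower in Th0 than in naive and at least 4.47-fold higher in Treg than in Th0. Pla2g15, the lysosomal enzyme, stood at 68.0, 8.22, 12.0 and 18.3 CPM, 8.27-fold lower in Th0 than in naive and 2.23-fold higher in Treg than in Th0.

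In Th0 over naive, markers of other cell types were lower in Th0, as these 5 genes were. All 12 macrophage and monocyte markers, all 12 B cell markers, all 10 neutrophil markers and all 10 dendritic cell markers were called lower (background 27.2%). So were all 10 red cell and platelet markers, 6 of 7 stroma and endothelium markers compared, and 6 of 10 CD8 T and NK cell markers. Of the dendritic cell list, Clec9a, Cd209a, Siglech, Clec10a, Clec4a4 and Cd300c were at 0 counts in Th0. In Treg over Th0, Pla2g4a and Pla2g15 were called higher, as were 5 of 11 macrophage and monocyte markers compared (background 20.2%). The macrophage and monocyte list summed to 53.2 against 32.6 CPM, while 10 of 11 B cell markers were called lower (background 11.9%). In Th17 over Th0, 4 of 8 macrophage and monocyte markers were called higher (background 20.4%). Neither Pla2g4a nor Pla2g15 was called there, but Pla2g4a, with 12 against 0 counts, had a log2 ratio of 0.94, just under the threshold. Neither gene was called between Th17 and Treg. The part of these markers in the result was not tested. The same naive library stands in all the Th0 over naive ratios above. Without genes under 10 CPM in both Th17 and Treg, the members called lower were Agpat1, Lypla2, Mboat1 and Pla2g15.

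**Figure D4:**
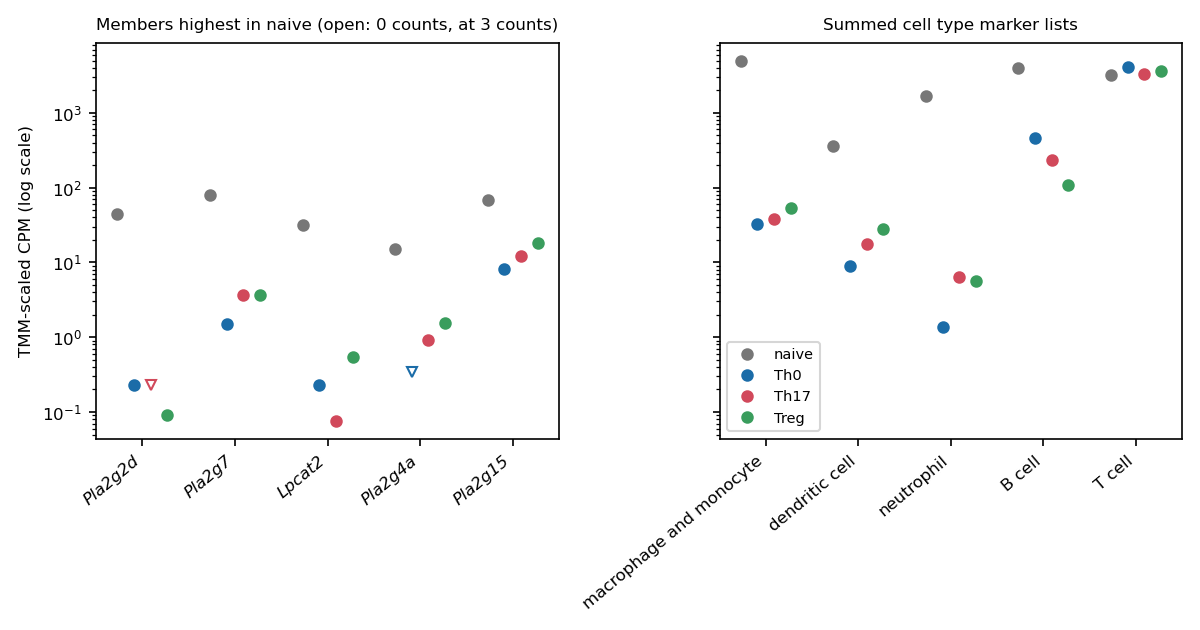
TMM-scaled CPM (log axis) in the naive, Th0, Th17 and Treg libraries, 1 library per point. On the left are 5 members picked by hand from the 11 that are highest in naive, among those with at least 10 CPM. Chka, Chkb, Lpcat1, Lpin2, Lypla2 and Mboat1 are highest in naive too and are not drawn. On the right is the summed CPM of 5 cell type marker lists. Open triangles are 0 counts, drawn at the level of 3 counts. The macrophage list runs from 5000 CPM in naive to 32.6 in Th0, and the T cell list stays between 3221 and 4035 CPM.

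Per kilobase of exon, the leading members differed between libraries. Lypla2 led in naive with 61.8 CPM per kilobase. In Th0 the order was Cept1 (36.3), Gpcpd1 (36.0), Pcyt2 (27.8) and Lpin1 (26.5). In Th17 it was Etnk1 (44.9), Agpat3 (44.1) and Lypla2 (35.2), and in Treg Lypla2 (41.7), Etnk1 (40.6) and Agpat3 (39.2). Lpcat4 ranked 9 (naive), 6 (Th0), 9 (Th17) and 8 (Treg) among the 57. By the authors' FPKM Lpin1 led in Th0, so the first places depend on the length used.

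Among the 34 members with at least 10 CPM in a library, the highest library was naive for 11, Th0 for 12, Th17 for 9 and Treg for 2. Those highest in Th0 were Lpcat4, Mboat7, Agpat4, Lpin1, Pcyt1a, Pcyt2, Cept1, Gpcpd1, Lypla1, Pla2g6, Pla2g16 and Pla2g4b. Those highest in Th17 were Gpat4, Agpat9, Agpat1, Agpat2, Agpat3, Lpcat3, Lpgat1, Etnk1 and Pla2g12a. Of these only Pla2g12a was called in Th17 over Treg, and for Gpat4, Lpcat3 and Lpgat1 the interval included no difference between those libraries.

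Other genes of the same pathways were counted from lists chosen by function. The share of all genes called higher and lower, against which these counts are to be read, was 18.5% and 27.2% in Th0 over naive, 20.4% and 12.2% in Th17 over Th0, 20.2% and 11.9% in Treg over Th0, and 1.94% and 1.21% in Th17 over Treg. Of 11 genes of the phosphatidylserine, CDP-diacylglycerol and ethanolamine branches, 1 was called higher and 1 lower in Th0 over naive, and in Th17 over Th0 1 of 10, Ept1, the ethanolamine-specific transferase (48.8 against 23.6 CPM). None of 10 was called in Treg over Th0. In the list of other glycerol 3-phosphate and ether lipid steps, Gpam, the mitochondrial glycerol 3-phosphate acyltransferase, and Gpd2 were the 2 of 9 called higher in Th17 over Th0 (2.94-fold and 2.35-fold) and in Treg over Th0 (2.75-fold and 2.25-fold), and 2 of 11 (Gpd1 and Gpd1l) were called lower in Th0 over naive.

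In diacylglycerol and phosphatidic acid turnover, 4 of 20 were called higher and 8 lower in Th0 over naive (background 18.5% and 27.2%). Dgat1, which makes triacylglycerol, stood at 35.7, 81.1, 265 and 153 CPM, 3.27-fold higher in Th17 than in Th0. Of 19 genes compared, 3 were called higher and 2 lower in Th17 over Th0, and 2 and 2 in Treg over Th0. Of the other phospholipases and hydrolases, 3 of 19 were called higher and 3 lower in Th0 over naive. In Th17 over Th0, 3 of 20 were higher and 2 lower, and in Treg over Th0 3 of 20 higher. Plbd2, a lysosomal phospholipase B-like protein, stood at 63.2, 10.6, 56.2 and 57.3 CPM, so Th0 was the low library. It was 5.95-fold lower in Th0 than in naive, and 5.29-fold and 5.39-fold higher in Th17 and Treg than in Th0. Enpp2, autotaxin, which makes lysophosphatidic acid, was 4.28-fold higher in Th17 than in Th0 and 2.73-fold higher than in Treg, the only 1 of 20 called in Th17 over Treg.

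Mfsd2a, a transporter of lysophosphatidylcholine, stood at 2.28, 8.80, 51.9 and 28.9 CPM. It was 5.90-fold higher in Th17 and 3.28-fold higher in Treg than in Th0, and 3.86-fold higher in Th0 than in naive. Of its list of transporters, 1 of 7 was called higher and 2 lower in Th0 over naive, 1 of 5 higher and 1 lower in Th17 over Th0, and 1 of 5 higher in Treg over Th0. Among flippases and scramblases, 2 of 17 were higher and 4 lower in Th0 over naive (background 18.5% and 27.2%). In Th17 over Th0, 4 of 16 were higher and 2 lower (20.4% and 12.2%), and in Treg over Th0 4 of 16 higher and 3 lower (20.2% and 11.9%), which is near the background. Plscr3, a scramblase, was 4.12-fold and 4.58-fold higher in Th17 and Treg than in Th0.

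The lipid regulators had 3 of 7 higher and 2 lower in Th0 over naive (background 18.5% and 27.2%). In Th17 over Th0 they had 1 higher and 1 lower (20.4% and 12.2%), and in Treg over Th0 2 higher and 1 lower (20.2% and 11.9%). Insig1, a sterol-regulated inhibitor of SREBP processing, stood at 55.1, 402, 165 and 152 CPM, 7.30-fold higher in Th0 than in naive and below Th0 by 2.43-fold in Th17 and 2.65-fold in Treg. Scap, the escort protein of SREBP, stood at 123, 43.2, 90.9 and 109 CPM, 2.85-fold lower in Th0 than in naive. In Th17 over Treg no lipid regulator was called, and Enpp2 was the only gene called among all these lists.

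The 7 G-patch genes shared only the start of their symbols with the rest. Gpatch4 had 469, 20, 250 and 145 counts in naive, Th0, Th17 and Treg, and Gpatch3 197, 20, 50 and 55. With them, 10 of 46 members were called higher and 10 lower in Th0 over naive (background 18.5% and 27.2%), and 8 and 5 of 46 in Th17 over Th0 (20.4% and 12.2%). The counts were 9 and 4 of 46 in Treg over Th0 (20.2% and 11.9%), and 2 and 1 of 47 in Th17 over Treg (1.94% and 1.21%). The other 5 (Gpatch1, Gpatch2, Gpatch2l, Gpatch8 and Gpatch11) were called in no comparison.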

How the data were processed

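Total RNA was sequenced on an Illumina HiSeq platform, per the labels' protocols, and Bowtie2, RSEM and the builds GRCm38.p6 and mm10 are named, without versions, per the submitters' processing notes. Overlapping and antisense genes cannot be told apart, as strandedness is not given in the sources used here. FPKM values and unnormalized whole-number counts were deposited by the authors, per the file headers. The deposited FPKM imply a gene length above the longest GENCODE vM21 transcript in 77.4% of 8969 genes (tolerance 1%), so levels between genes were compared as CPM per kilobase of collapsed GENCODE exons.

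Counts were scaled with TMM over all genes (edgeR 4.0.16, R 4.3.3; factors 1.03 for naive, 0.852 for Th0, 1.05 for Th17, 1.08 for Treg). Log2 ratios used a pseudocount of 1 CPM and folds none, with 0 counts taken as 3. Calls needed 2-fold and a 95% Clopper-Pearson (exact conditional) interval for the ratio of counts without 1. Intervals are for ratios without the pseudocount, also where they stand beside a log2 ratio that has it. Intervals and floors cover counting error only. With 1 library per group no p-value was computed. Every member with at least 10 CPM in a library, called in a comparison, or named Lpcat1 to Lpcat4 is given by name. The members and lists were chosen with earlier results of these data known, and pathway genes named outside the members were chosen after their values were seen. Gene pairs for count ratios were picked by hand, and not all of them are given. Promoters are from RefSeq. The scripts were tested on simulated data.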

Additional observations from a re-analysis of the deposited data

How the results depend on the processing

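No paired analysis was possible because each group has 1 library, and no library could be left out. Scaling to library totals moved the median log2 ratio of all genes by -0.28 in Th0 over naive, 0.30 in Th17 over Th0 and 0.34 in Treg over Th0. With library totals the members' medians became -0.40, 0.50 and 0.48, the higher calls 12 in Th17 over Th0, 15 in Treg over Th0 and 1 in Th17 over Treg, and the lower calls 2 in Th17 over Th0. A pseudocount of 5 CPM gave 4 higher calls in Th17 over Th0, 4 in Treg over Th0, 0 in Th17 over Treg, and a median of 0.12 in Th17 over Th0. With 0.25 CPM, 2 members were lower in Th17 over Treg. A 1.5-fold rule gave 13 higher and 9 lower in Th17 over Th0, 18 and 10 in Treg over Th0, and 2 lower in Th17 over Treg. The authors' FPKM gave 5 higher in Th0 over naive, 1 lower in Th17 over Th0 (median 0.17), 1 lower in Treg over Th0 and 0 higher in Th17 over Treg. With no filter on low counts the Th17 over Th0 median was 0.14. With at least 10 CPM required, the medians turned to -0.047 in Th17 over Th0 and -0.18 in Treg over Th0, and 1 member was higher in Th17 over Treg. Among genes reaching 10 CPM in either polarized library, chosen after seeing the data, 4 members were lower in Th0 over naive. The cause of these shifts was not tested. The share of all genes called was not counted under library totals, other pseudocounts, the authors' FPKM or with at least 10 CPM required. Member counts under those settings therefore have no background to be read against. The Lpcat4 ratios stayed uncalled with the same sign under all alternatives, but library totals and the authors' FPKM brought them near 0: 0.014 and 0.013 in Th0 over naive, -0.15 and -0.14 in Th17 over Th0, and -0.19 and -0.18 in Treg over Th0. Of the values of single named members under the alternatives, 983 kept their side of the threshold, 40 lost a call and 23 gained one. No called member changed sign, and changes of sign among uncalled members were not counted. Members under 10 counts limit what can be compared.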
